A study of Rattus norvegicus with 39 samples.

Results

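Ageing was compared in the cerebral cortex of male BN/SsNOlaHSD rats on every diet other than plain ad libitum feeding (AL). Each library held the pooled RNA of 2 rats, and 30 of the 39 libraries of the series entered the comparison, 3 pools from each of 10 groups and 60 rats in all. The 9 younger pools (18 rats) were caloric restriction at 6 months (6 m CR) and 12 months (12 m CR), and AL with α-lipoic acid at 12 months (12 m AL+LA). The 21 older pools (42 rats) were all of 28 months and came from 7 diets. CR and AL+LA were kept throughout, and ">" marks a switch of diet at 12 months in the rest, either to CR (AL>CR, AL+LA>CR), from CR to a diet without restriction (CR>AL, or CR>AL+LA), or by the addition of LA (CR>CR+LA). Rats were fed AL until 2 months of age, CR rats received 55% of the intake of controls, and LA was given at 1.5 g/kg of diet. The 9 pools fed AL throughout without LA (6, 12 and 28 months) were left out and are used only in the last comparison. Age and diet were not balanced, since 5 of the 7 older diets had no younger pools and every 6-month pool was CR, so the 9 against 21 comparison sets age classes side by side across unlike diets. The replicate is the pool, and the spread between pools of 2 rats is smaller than that between rats.

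Glia of the cortex are known to shift with age in rodents. Astrocytes build their intermediate filaments from glial fibrillary acidic protein (Gfap). Microglia are the resident macrophages of the brain, and they take up and degrade debris in lysosomes. When activated they display peptides on major histocompatibility complex (MHC) class II molecules. These are pairs of an alpha and a beta chain, which the invariant chain Cd74 accompanies from the endoplasmic reticulum towards the lysosome. Heat shock proteins of the Hsp70 family fold and rescue other proteins and are induced by stress. In whole cortex, more cells of a type and more RNA per cell cannot be told apart.

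Levels are given as counts per 1000000 reads on genes (CPM) after scaling by the trimmed mean of M-values (TMM), and a log2 fold change is 28 m over younger, positive where the older pools were higher. Libraries held 2661799 to 5966979 reads on genes, with a median of 3701632 in the younger pools and 4218382 in the older (two-sided exact Mann-Whitney test, p = 0.0356, adjusted p = 0.0900 over 4 library measures). Several pools stood apart before any gene was tested. The 28S ribosomal RNA gene Rn28s, left over after depletion, took a median of 0.779% of the reads on genes in the younger pools (0.253 to 3.31%) and 2.98% in the older (0.439 to 3.37%; exact p = 0.0450, adjusted p = 0.0900). In 6 m CR pool 10, the 5 thalamus markers with a name summed to 574 CPM, against 57.8 CPM in the lowest younger pool and 64.4 to 255 CPM in the older pools, and the 4 markers of cortical neurons summed to 178 CPM, below the 317 to 466 CPM of the older pools. For the thalamus markers Prkcd, Plekhg1, Tcf7l2 and Slc17a6, 6 m CR pool 12 lay above every older pool as well. For Slc17a6, 12 m CR pool 15 did too, and for Calb2 only pool 10 did. Markers of the cerebellum (8 with a name) covered 429 to 680 CPM in the younger and 431 to 652 CPM in the older pools. Of the 10 marker lists for other tissues and cells, those of choroid plexus and lymphocytes had no member with a name. In the other 8 lists edgeR called 0 markers, and DESeq2 and edgeR's exact test also called 0. At an unadjusted p under 0.05 edgeR had 7 of them, beside 1513 of all 17230 genes tested. All 5 thalamus markers lay below 0 (median log2 fold change -0.39), 2 of them at an unadjusted p under 0.05. The 0 calls therefore do not show that younger and older pools held the same tissue.

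Of 17230 genes tested, 95 (0.551%) passed an adjusted p of 0.05 by edgeR's quasi-likelihood test, 63 higher at 28 m (0.366%) and 32 lower (0.186%). Gfap, the 5 MHC class II genes with a name and 5 of 10 microglial genes rose, while Hspa1b, Ndn and Nr4a2 fell. A gene name was at hand for 1669 of the genes tested, all of them from the study's own lists of genes that differed in these libraries, so the named genes are not an independent sample; 39 of them were called (2.34%), 33 higher (19 of them on the lists of glial and immune genes) and 6 lower, and 56 called genes could be counted only by identifier. The changes were modest. Among the 71 called genes with a mean of at least 5 CPM (59 higher, 12 lower), the median change was 0.52 on the log2 scale in either direction. The median over all genes tested was -0.002, with 49.3% above 0. The count fell to 55 without 6 m CR pool 11 and to 56 without 12 m CR pool 14, and was 175 without 6 m CR pools 10 and 12 and 12 m AL+LA pool 38. It was 52 without the 4 pools with the most albumin RNA (Alb, 12 m CR pools 13 and 14, 12 m AL+LA pool 39 and 28 m AL+LA pool 35) and 50 with Rn28s as a covariate.

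**Figure D1:**
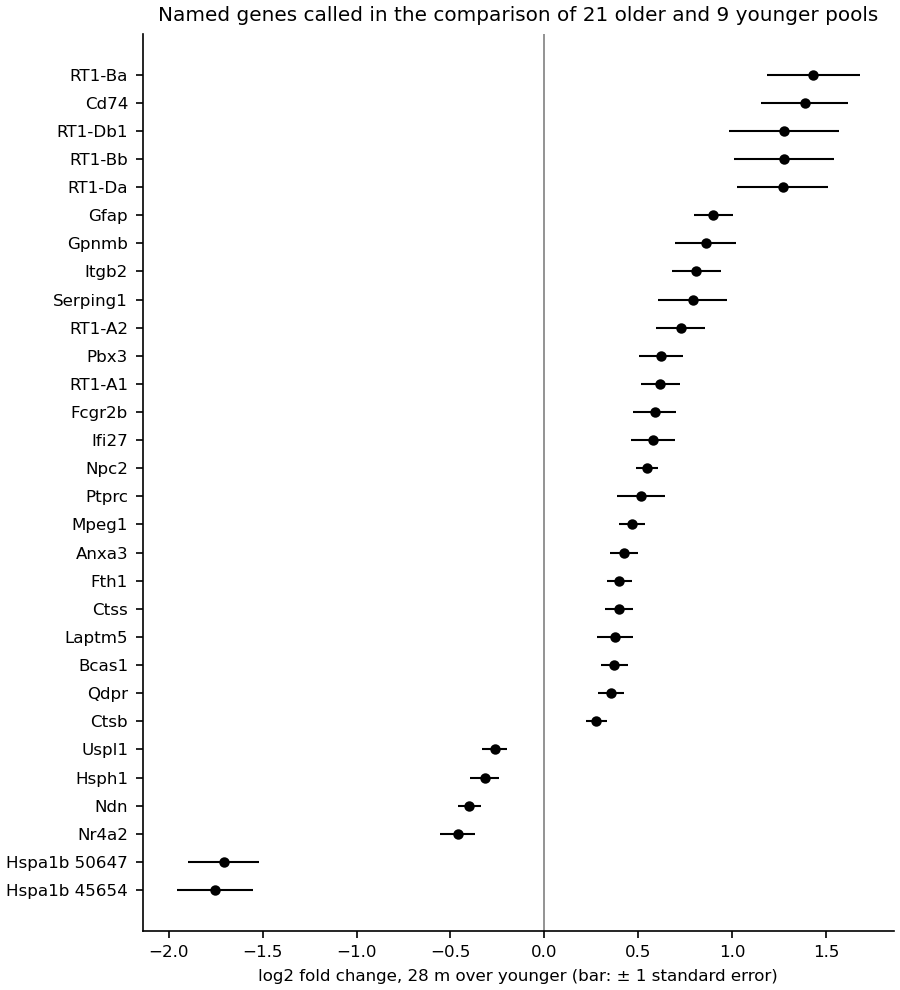
Each point is 1 of the 30 called identifiers with a name that the text gives, and its log2 fold change, 28 m over younger, with its standard error (horizontal axis, log2 scale), from edgeR over 9 younger and 21 older pools. The 5 MHC class II genes lie furthest to the right, between 1.27 and 1.43, and both Hspa1b identifiers furthest to the left, at -1.71 and -1.75.

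Npc2, which carries cholesterol out of the lysosome, was the one gene of the 17230 whose younger and older pools did not overlap (0.0058% of genes tested). It lay between 70.6 and 103 CPM in the younger pools (median 81.6) and between 106 and 153 CPM in the older (median 124). Its log2 fold change was 0.55 (SE 0.06, adjusted p = 1.43e-07), and group means ran only from 118 to 134 CPM across the 7 older diets, against 82.4, 84.5 and 84.1 CPM in 6 m CR, 12 m CR and 12 m AL+LA.

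Gfap rose by a log2 fold change of 0.90 (SE 0.10, adjusted p = 3.07e-07). Younger pools held 226 to 439 CPM (median 315) and older pools 390 to 862 CPM (median 607), with 20 of the 21 older pools above every younger one. The exception among the older was a 28 m CR pool, and 6 m CR pool 10 and 12 m AL+LA pool 38 were the younger pools that reached into the older range. In both diets measured at 12 and 28 months Gfap rose, from 263 ± 46.5 to 523 ± 157 CPM in CR and from 381 ± 54.3 to 729 ± 119 CPM in AL+LA (SD, n = 3 pools). Of the 6 astrocyte genes with a name, Gfap was the only one called (4 above 0, median log2 fold change 0.14). The list held 20 genes, and the rest had no name at hand. The summed level of the 6 was 1017 to 1470 CPM in the younger and 1171 to 1838 CPM in the older pools, and the highest younger pool was 6 m CR pool 10.

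**Figure D2:**
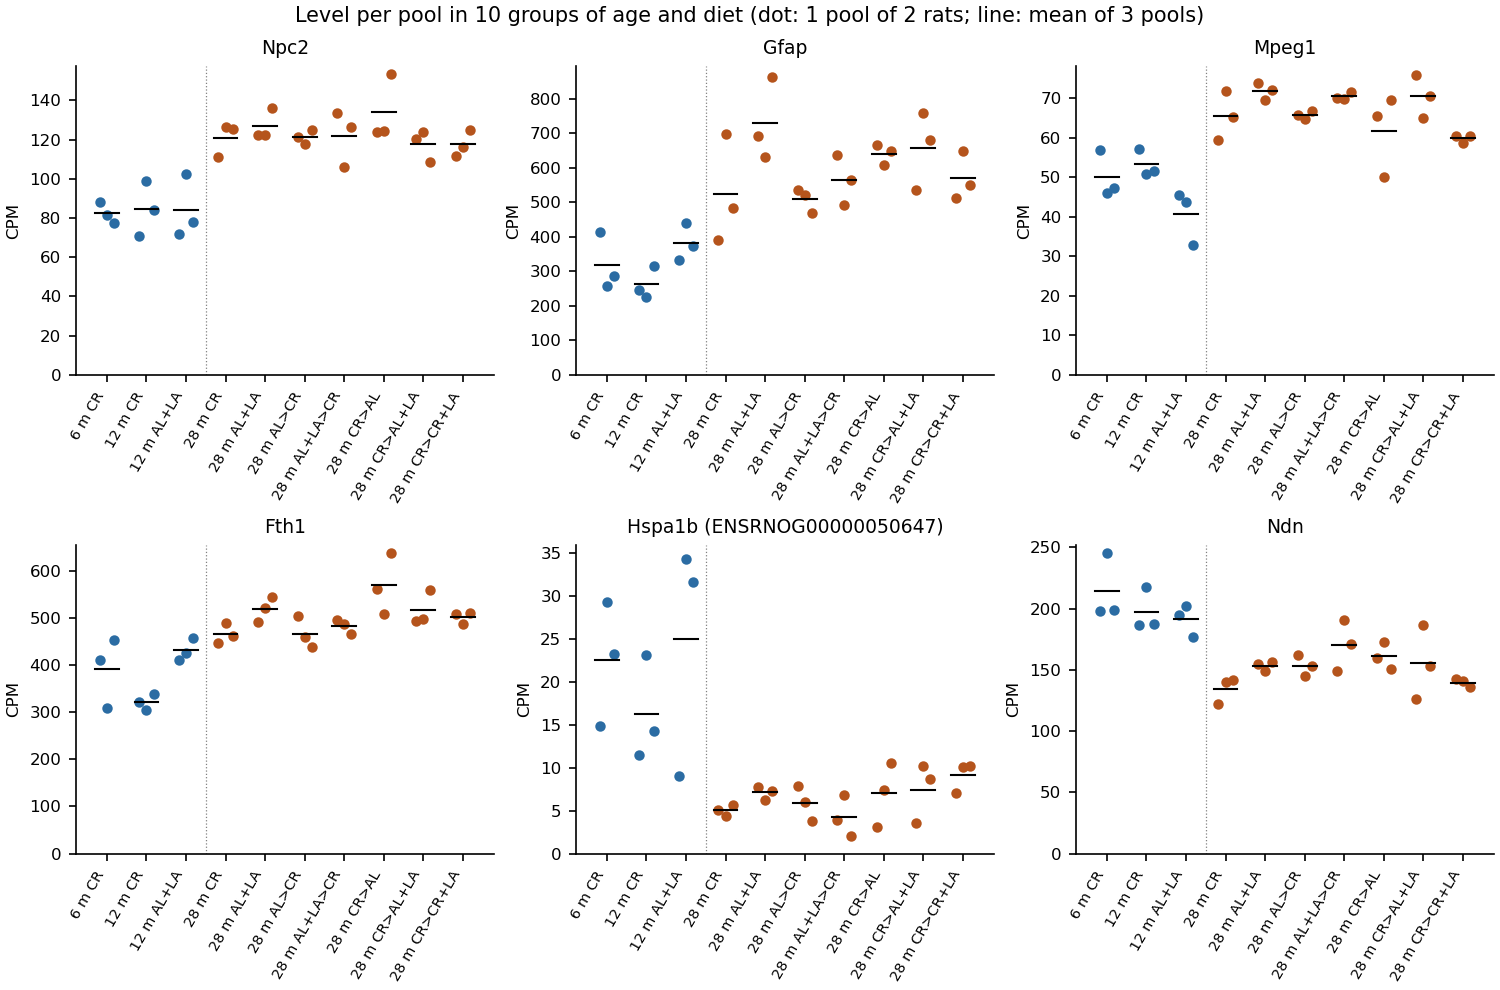
Each panel shows 1 gene with its CPM in every pool (points) of the 10 groups, 3 younger and 7 of 28 months. Npc2 separates the 9 younger from the 21 older pools without overlap, Gfap, Mpeg1 and Fth1 are higher in nearly all older pools, and Hspa1b and Ndn are lower.

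Of the 10 microglial genes with a name, 5 were called, each of them higher at 28 m. All 10 lay above 0 (median log2 fold change 0.41), and the summed level was 259 to 365 CPM in the younger pools and 343 to 468 CPM in the older. Itgb2, the beta-2 chain of the leucocyte integrins, went from 4.18 to 10.3 CPM (median 7.10) in the younger pools to 7.34 to 15.99 CPM (median 11.7) in the older, a log2 fold change of 0.81. Ctss, the cathepsin that trims the invariant chain, lay at 151 to 229 CPM (median 177) and at 194 to 296 CPM (median 250), a log2 fold change of 0.40 (SE 0.08, adjusted p = 0.00297). The Fc receptor gene Fcgr2b (0.59) was the next in order. Ptprc (0.51), which encodes the pan-leucocyte phosphatase CD45, and Laptm5 (0.38), a lysosomal membrane protein of blood cells, passed narrowly and kept their calls in 12 and 7 of 30 fits that omitted 1 pool at a time. The members called numbered 3 in 10 of those fits (without 6 m CR pool 11, 12 m CR pool 14, 12 m AL+LA pool 39 and 7 older pools), 3 with the 12-month pools alone as the younger pools, and 2 with Rn28s as a covariate or without the 4 pools high in Alb. Mpeg1, a pore-forming protein of macrophages that was not on the list, lay between 33.01 and 57.2 CPM (median 47.4) in the younger pools and between 50.05 and 76.0 CPM (median 66.8) in the older, with 20 of 21 older pools above all younger ones (log2 fold change 0.47, adjusted p = 7.30e-05). Markers of lymphocytes could not be set beside these genes, and the part of blood-borne cells in them was not tested.

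Calls were also found on 3 further immune lists, each read through its members with a name alone. Of 4 genes of the disease-associated microglial state, Gpnmb, a lysosomal glycoprotein, rose from 5.09 to 12.9 CPM (median 8.79) to 8.99 to 25.9 CPM (median 16.6), a log2 fold change of 0.86 (SE 0.16, adjusted p = 0.00244). Ctsb, the lysosomal protease cathepsin B, rose by 0.28 on the log2 scale, and the median of the list was 0.24. With the 12-month pools alone as the younger pools neither was called by edgeR. Fth1, the heavy chain of the iron store ferritin and on none of these lists, rose from 304 to 458 CPM (median 410) to 437 to 638 CPM (median 496), a log2 fold change of 0.40 (adjusted p = 0.000279). Among 6 complement genes (6 above 0, median 0.36) only Serping1, the inhibitor of the first complement component, was called (0.79, adjusted p = 0.0264). That call was lost without 6 m CR pool 11 (adjusted p = 0.0811), without 6 m CR pool 12 (0.0532) and without 12 m AL+LA pool 38 (0.0559). Among 4 interferon response genes (4 above 0, median 0.40) Ifi27 was called (0.58).

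The MHC class II genes had the largest median change of the process lists. The promoters of the 5 members are shown because these genes rose together. The X box and the Y box of class II promoters are where the class II transactivator complex is known to be recruited, which was not tested here. Each run is the 250 bases before the RefSeq gene start in assembly GRCr8, 5′ to 3′ on the gene's strand, with CTGATTGG (the Y box) and TNGCAAC (an X box core, whose letters were chosen after the sequences had been read) in capitals where a search of both strands found them.
RT1-Ba: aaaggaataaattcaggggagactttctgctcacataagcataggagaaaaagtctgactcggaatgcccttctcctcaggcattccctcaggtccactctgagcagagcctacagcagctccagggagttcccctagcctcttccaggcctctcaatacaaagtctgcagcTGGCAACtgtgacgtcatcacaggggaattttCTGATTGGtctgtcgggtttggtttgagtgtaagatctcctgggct
RT1-Bb: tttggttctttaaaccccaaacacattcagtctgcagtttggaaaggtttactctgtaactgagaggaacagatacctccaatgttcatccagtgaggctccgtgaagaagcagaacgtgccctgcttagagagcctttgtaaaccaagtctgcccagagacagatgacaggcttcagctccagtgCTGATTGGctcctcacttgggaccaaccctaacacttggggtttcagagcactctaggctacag
RT1-Da: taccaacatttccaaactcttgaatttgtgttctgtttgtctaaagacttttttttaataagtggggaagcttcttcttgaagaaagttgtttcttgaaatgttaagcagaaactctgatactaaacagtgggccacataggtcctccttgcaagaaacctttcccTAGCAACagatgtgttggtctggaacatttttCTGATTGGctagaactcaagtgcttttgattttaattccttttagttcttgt
RT1-Db1: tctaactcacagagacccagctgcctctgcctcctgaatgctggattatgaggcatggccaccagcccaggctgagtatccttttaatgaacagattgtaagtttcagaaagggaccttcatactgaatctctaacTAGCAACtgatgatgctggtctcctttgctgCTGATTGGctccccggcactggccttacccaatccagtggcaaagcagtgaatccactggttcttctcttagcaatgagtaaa
Cd74: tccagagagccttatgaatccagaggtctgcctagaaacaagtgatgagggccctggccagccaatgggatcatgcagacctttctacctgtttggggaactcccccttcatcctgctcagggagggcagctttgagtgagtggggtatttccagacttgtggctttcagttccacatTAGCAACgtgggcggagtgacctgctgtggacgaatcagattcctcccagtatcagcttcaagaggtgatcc
The windows lie at chr20:4576807-4577056 on the plus strand (RT1-Ba), chr20:4604119-4604368 on the minus strand (RT1-Bb), chr20:4515165-4515414 on the plus strand (RT1-Da), chr20:4560163-4560412 on the minus strand (RT1-Db1) and chr18:56526956-56527205 on the plus strand (Cd74). The X box core starts 78 bases before the gene start in RT1-Ba, 84 in RT1-Da, 114 in RT1-Db1 and 72 in Cd74, and the Y box 46, 52 and 83 bases before it in the first 3 and 64 in RT1-Bb. Both occur in RT1-Ba, RT1-Da and RT1-Db1, with starts 32, 32 and 31 bases apart. Cd74 had no match to the Y box and RT1-Bb none to the X box core. Of 33469 RefSeq windows of this length, 3.19% held the Y box, 8.55% the X box core and 0.236% both. A match is a description of the letters and not of binding.

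All 5 class II genes were called higher (median log2 fold change 1.28). Cd74 stood between 8.75 and 89.1 CPM in the younger pools (median 17.6) and between 38.9 and 112 CPM in the older (median 76.7). Its log2 fold change was 1.39 (SE 0.23, adjusted p = 0.000416), which is 2.61-fold. RT1-Ba, an alpha chain, went from 5.31 to 87.4 CPM (median 13.1) to 37.1 to 97.0 CPM (median 63.4), a log2 fold change of 1.43 (SE 0.25, adjusted p = 0.000592). The other alpha chain, RT1-Da, changed by 1.27, and the beta chains RT1-Bb and RT1-Db1 by 1.28 each. In all 5 genes the top younger pool was 12 m AL+LA pool 38, at 89.1 CPM for Cd74 where the next younger pool had 35.6, and for Cd74, RT1-Ba and RT1-Db1 it was the only younger pool above the lowest older pool. For RT1-Db1, at 60.6 CPM, it lay above every older pool (46.7 CPM at most). Without it the log2 fold changes were 1.93 for Cd74, 2.17 for RT1-Ba, 1.83 for RT1-Da, 2.05 for RT1-Bb and 2.30 for RT1-Db1. RT1-Db1 lost its call without 6 m CR pool 11 (adjusted p = 0.0659), 12 m CR pool 14 (0.0693) or 12 m AL+LA pool 39 (0.0525).

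**Figure D3:**
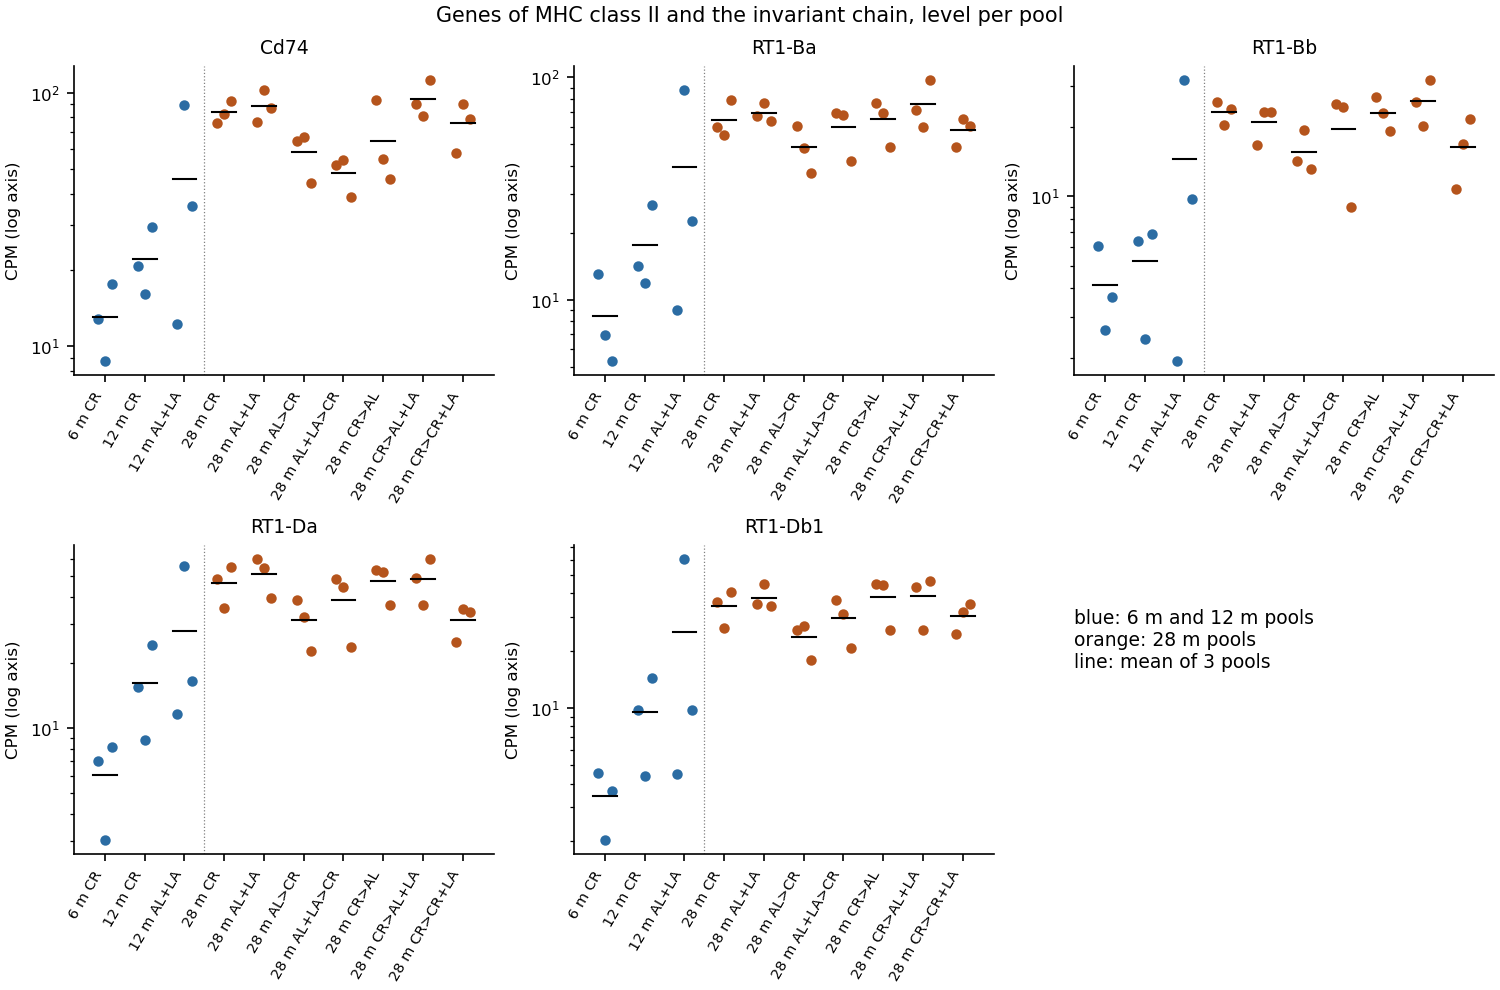
CPM on a log axis of Cd74 and the 4 RT1 class II genes in each pool of the 10 groups. The mean of 6 m CR is the lowest of the 10 groups in each gene, and 12 m AL+LA pool 38 lies among the older pools in Cd74, RT1-Ba, RT1-Da and RT1-Bb and above them in RT1-Db1.

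The class II levels were already spread among the younger groups. Cd74 averaged 13.03 ± 4.42 CPM in 6 m CR, 22.1 ± 6.90 in 12 m CR and 45.7 ± 39.4 in 12 m AL+LA (SD, n = 3 pools), although the lowest adjusted p for a difference among these 3 groups was 0.147 over the called genes named here, for RT1-Da. Against 6 m CR, 28 m CR was higher by 2.75 on the log2 scale for Cd74 and by 3.39 for RT1-Db1, and against 12 m CR by 1.93 and 1.86. With the 12-month pools alone as the younger pools, Cd74 and RT1-Ba were called, and RT1-Da, RT1-Bb and RT1-Db1 were not (RT1-Db1 0.85, adjusted p = 0.225). With Rn28s as a covariate, Cd74 (1.06, adjusted p = 0.0273), RT1-Ba and RT1-Da were called, and without the 4 pools high in Alb only Cd74 and RT1-Ba. The older pools differed less, from 48.3 ± 8.30 CPM of Cd74 in AL+LA>CR to 94.3 ± 15.96 CPM in CR>AL+LA, and the test over the 7 diets gave Cd74 the smallest adjusted p of the called genes named here, 0.176. Both class I genes with a name, RT1-A1 (0.62) and RT1-A2 (0.73), also rose. RT1 genes have near-identical relatives, and reads mapping to more than 1 place had been dropped, so their counts are uncertain.

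Both Ensembl identifiers named Hspa1b, the stress-inducible Hsp70, fell. Reads mapping to more than 1 place had been dropped, so the counts of these near-identical copies are uncertain, and they should be read as 1 signal. The first (ENSRNOG00000050647) lay between 9.04 and 34.3 CPM in the younger pools (median 23.1) and between 2.03 and 10.5 CPM in the older (median 6.79), a log2 fold change of -1.71 (SE 0.19, adjusted p = 1.43e-07). Only 12 m AL+LA pool 37 of the younger pools, at 9.04 CPM, lay inside the older range. The second (ENSRNOG00000045654) changed by -1.75 (SE 0.20, adjusted p = 3.07e-07), from a median of 18.8 CPM to one of 5.74 CPM. Of the 8 heat shock and chaperone identifiers with a name, these and Hsph1 were called, all lower, and 1 lay above 0 (median -0.11). Hsph1, the Hsp110 that recharges Hsp70 with ATP, went from 303 to 558 CPM (median 401) to 275 to 407 CPM (median 334), a log2 fold change of -0.32 (SE 0.08, adjusted p = 0.0330). It was called in 25 of 30 fits with 1 pool left out, and not without 6 m CR pools 11 or 12, 12 m CR pool 14, or 12 m AL+LA pools 38 or 39 (adjusted p between 0.0586 and 0.137). The Hsph1 promoter is printed because heat shock factor binds inverted repeats of GAA and TTC, and the capitals mark TTCNNGAA and GAANNTTC (7.48% and 7.23% of the same 33469 windows).
Hsph1: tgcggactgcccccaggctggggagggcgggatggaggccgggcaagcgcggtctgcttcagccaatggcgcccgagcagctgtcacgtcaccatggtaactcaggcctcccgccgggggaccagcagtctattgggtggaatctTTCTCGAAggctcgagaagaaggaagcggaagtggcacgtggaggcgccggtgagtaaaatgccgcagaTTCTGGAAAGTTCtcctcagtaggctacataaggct
This window is chr12:10427118-10427367 on the plus strand of GRCr8. TTCNNGAA starts 105 and 36 bases before the gene start and GAANNTTC 31 bases before it, where it overlaps the second match.

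Other named genes that fell were Ndn, Nr4a2 and Uspl1. Ndn, an imprinted gene whose product necdin restrains growth in neurons, went from 177 to 246 CPM (median 198) to 122 to 191 CPM (median 151), a log2 fold change of -0.40 (SE 0.06, adjusted p = 9.99e-05). It was lower than every younger pool in 19 of 21 older pools. Nr4a2, an orphan nuclear receptor and immediate early gene, changed by -0.46 (SE 0.09, adjusted p = 0.00611), and 1 of the 11 immediate early genes with a name lay above 0 (median -0.11, Nr4a2 alone called). Uspl1 changed by -0.26 and was called in 8 of 30 fits with 1 pool left out. The larger falls were in genes without a name and came from few pools. For 16 lower calls with a log2 fold change under -2, the highest pool was 6 m CR pool 11 in 8, 12 m AL+LA pool 39 in 7 and 12 m CR pool 13 in 1, and in 12 of the 16 that pool held over 50% of the summed CPM of the 9 younger pools (40.2 to 88.9% over the 16).

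Of the oligodendrocyte lineage, Bcas1, expressed in newly forming oligodendrocytes, and Qdpr, dihydropteridine reductase, were called higher. Bcas1 lay between 138 and 239 CPM (median 158) in the younger pools and between 171 and 270 CPM (median 219) in the older, a log2 fold change of 0.37 (SE 0.07, adjusted p = 0.00332). Its highest younger pool was 6 m CR pool 10, and omitting it gave 0.45. The call was lost without 12 m CR (0.31, adjusted p = 0.106) and without the 4 pools high in Alb (0.27, adjusted p = 0.198). Qdpr changed by 0.36. They were the 1 call among 3 precursor genes with a name (median 0.22) and the 1 call among 7 myelin genes with a name (median 0.22). Anxa3 (0.43) and the homeobox gene Pbx3 (0.62) rose outside these lists, as did ENSRNOG00000047657, a gene without a name, at 1.05.

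Few lists of neuronal or metabolic genes held a call among their members with a name. Over all genes tested 0.551% were called, and 2.34% of those with a name. Lists this short would mostly hold 0 calls at those shares, so a count of 0 says little about their members. Members without a name could not be looked up, and could be among the 56 called genes without one. Names covered 10 of 29 listed genes of synaptic vesicle release and 11 of 34 chromatin regulators. In 15 of the 26 process lists edgeR called 0 members. That of the mitochondrial genome had no member with a name to test, and the others include synaptic vesicle release (10 with a name, median log2 fold change -0.04), postsynaptic density and glutamate receptors (12, -0.02), neuropeptides (10, -0.01), interneurons (7, 0.004), the circadian clock (8, -0.03), cholesterol synthesis (7, -0.003) and chromatin regulators (11, 0.01). At an unadjusted p under 0.05 they held 1, 1, 0, 0, 1, 0 and 0 members, and in these 7 lists DESeq2 and edgeR's exact test called 0 as well. The 11 antioxidant and glutathione genes all lay above 0, between 0.01 and 0.28, with a median of 0.07 and 2 members at an unadjusted p under 0.05, and were called by none of the 3 tools. Of 41 identifiers on the lists that the study itself names, 2 were called, both of them Hspa1b, and their median log2 fold change was -0.0007.

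CR and AL+LA are the diets with pools at both 12 and 28 months, and 12 libraries of these, fitted with diet as a term, gave 18 calls (0.104%), 14 higher (0.0813%) and 4 lower (0.0232%). Gfap (0.96, SE 0.12, adjusted p = 0.000381), Bcas1 (0.52) and ENSRNOG00000047657 (1.24) led the rises, and both Hspa1b identifiers (-1.77 and -1.79) and Ndn (-0.44) led the falls. These 12 pools are among the 30, so the comparison is not a repeat on other samples. Among the class II genes Cd74 was called (1.37, adjusted p = 0.0309), while RT1-Ba had 1.25 with an adjusted p of 0.204. The count ran from 4 without 12 m AL+LA pool 37 to 31 without 28 m AL+LA pool 34. Within CR alone, 47 genes were called from 12 to 28 months (0.273%). Of these 41 rose (0.238%) and 6 fell (0.0348%). Against 6 months there were 9 calls (0.0522%), with 7 rises (0.0406%) and 2 falls (0.0116%). Within AL+LA 3 genes were called (0.0174%), of which Gfap (0.93) and Mpeg1 (0.81) were higher (0.0116%) and the second Hspa1b identifier (-2.20) was lower (0.0058%).

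The change from 12 to 28 months differed between CR and AL+LA in 15 genes (0.0871%), all with a lower change in AL+LA, and in 0 genes the other way by edgeR (317 at an unadjusted p under 0.05) or DESeq2. The leading 3 were Rn28s (-3.39, SE 0.41, adjusted p = 4.76e-05), ENSRNOG00000045589 (-3.39) and ENSRNOG00000049350 (-3.37), whose levels moved in step from pool to pool. Rn28s stood at 3487 ± 724 CPM in 12 m CR and 31925 ± 1850 CPM in 28 m CR, and at 28724 ± 7016 CPM in 12 m AL+LA and 25118 ± 14429 CPM in 28 m AL+LA (SD, n = 3 pools). With Rn28s as a covariate 0 genes were called. Rn28s carries this interaction itself, so that fit cannot show whether the other genes follow Rn28s or the diets. Among the genes named here that were called with age, the smallest adjusted p of this interaction, outside these 3, was 0.980 (Mpeg1 and RT1-Bb). Its size for Cd74 was -1.03 and for Gfap -0.07. The cause of the Rn28s difference between pools was not tested.

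Differences between diets of 1 age class were tested too. The test over the 7 diets at 28 m called 13 genes (0.0754%) and that over the 3 younger groups 8 genes (0.0464%). The count for the younger groups ran from 1 without 12 m CR pool 14 or 12 m AL+LA pool 38 to 159 without 6 m CR pool 11, and that for the older diets from 5 without 28 m CR>AL pool 26 to 31 without 28 m AL+LA>CR pool 24.

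In plain AL the same age classes were set against each other in 6 younger and 3 older pools, and the difference between this change and that of the other diets was tested over all 39 libraries. It was called in 443 genes (2.57%), 309 with a more positive change in the other diets (1.79%) and 134 with a more negative one (0.778%). Gfap led, with a difference of 2.47 on the log2 scale (SE 0.24, adjusted p = 1.63e-09). It averaged 509 ± 144 CPM in the younger and 171 ± 31.3 CPM in the older plain AL pools, where the other diets went from 321 ± 75.2 to 599 ± 110 CPM. Fth1 (1.07, SE 0.15, adjusted p = 2.51e-05) likewise fell in plain AL, from 569 ± 105 to 355 ± 43.6 CPM. For Cd74 the difference was 2.40 (adjusted p = 0.0136), but its change with age in plain AL did not pass by itself (-1.01, adjusted p = 0.248). The 12 m AL pools stood at 101 to 144 CPM, those of 28 m AL at 20.6 to 46.7 CPM, and those of 6 m AL lower still or level with them, at 16.7 to 26.9 CPM, so that the higher younger level rests on the 12-month pools. The differences of both Hspa1b identifiers, 1.19 (adjusted p = 0.391) and 0.89 (0.540), and of Ndn (-0.10) did not pass. On the other side was the ribosomal protein gene Rpl32 (-0.83), which rose in plain AL.

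**Figure D4:**
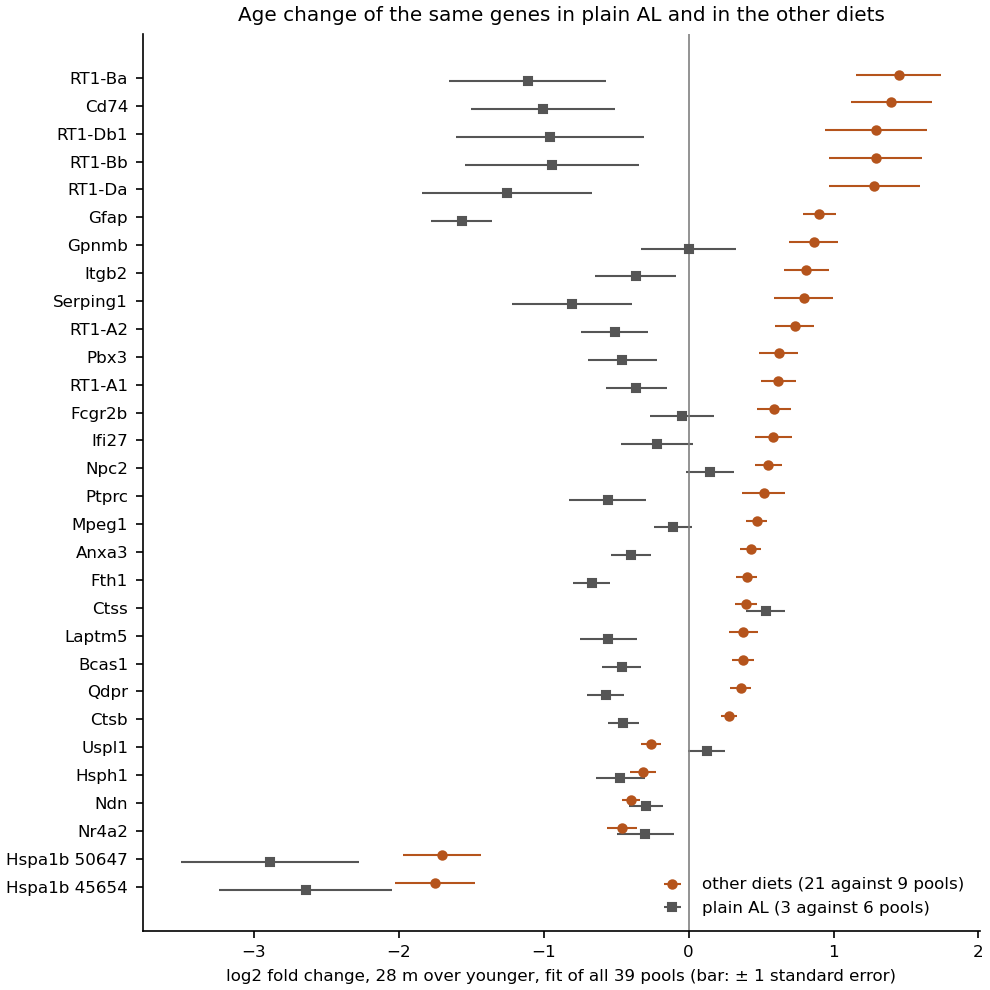
Log2 fold change with age (horizontal axis, bars 1 standard error) of the same 30 identifiers in plain AL (squares, 6 younger and 3 older pools) and in the other diets (circles, 9 and 21 pools), both from 1 fit of 39 libraries. Gfap sits at -1.56 in plain AL and at 0.90 in the other diets, and both Hspa1b identifiers are below 0 in both.

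The plain AL pools differ in more than diet. Their 8 cerebellum markers summed to between 581 and 3105 CPM, while no pool of the other diets passed 680 CPM. Of their reads 27.5 to 36.1% were not aligned, against 34.1 to 43.2% in the other diets. There only 28 m AL+LA>CR pool 23 lay below 36.1%. Of 12 m AL, pool 5 held 494091 reads on genes, the fewest of the 39. The count of 443 was 58 without 28 m AL pool 7, 153 without pool 9 and 761 without pool 8. Whether the feeding or the pools set this difference cannot be told apart here.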

How the data were processed

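RNA-seq of rat cerebral cortex was analysed from the values the authors deposited, which are raw counts of reads per Ensembl gene without normalization. Per the study's methods and the labels, ribosomal RNA was depleted, SOLiD reads were mapped with Bowtie to the rn5 build, reads with several positions were dropped, and the rest were counted with HTSeq-count. The 5 closing lines of each file, which name no gene, were left out of library sizes and tests. They include the reads on no gene, 80.3 to 83.0% of the aligned reads of the 30 libraries.

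A gene was tested if 3 or more of the 39 libraries reached 1 CPM, which left 17230 of 26123. Libraries were scaled by TMM and tested with edgeR 4.0.16 in R 4.3.3 (glmQLFit, glmQLFTest), with Benjamini-Hochberg adjustment over the genes tested. The main fit had age class alone as its term. Standard errors were derived from the log2 fold change and its F statistic. Where nothing says that pools are more than separate pools, p-values measure the spread between pools. The comparison and the gene lists were chosen with earlier results of these data known. Named are at most 12 genes per direction by adjusted p (mean of at least 5 CPM, same sign in 6 m to 28 m CR, 12 m to 28 m CR and 12 m to 28 m AL+LA), at most 3 per direction of the matched fit and of each interaction, the called members of the lists, and members of the lists that the study names. Names came from the study's supplementary tables and promoters from RefSeq (GRCr8), where 21 of 29 called symbols matched 1 window. Pools of a group differed by more than sampling noise (chi-square per degree of freedom 2.97 to 45.5 over 30 pairs).

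On simulated counts of 17230 genes for 9 and 21 pools, the test recovered 99% of genes changed by 1 on the log2 scale and 82% of those changed by 0.5, with 7 false calls, and made 0 calls where no gene was changed. The genes changed all had a mean of at least 5 CPM, so the recovery does not cover genes below it. The simulated pools were independent, without diet groups or outlying pools, unlike the real ones. DESeq2 1.42.0, edgeR's exact test, other scaling, filters and covariates, and leaving out each pool or group in turn were alternatives. Leaving out 6 m CR pools 10 and 12 with 12 m AL+LA pool 38, and leaving out the 4 pools with the highest Alb, were chosen after seeing the data. Some results are not reported here.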

Additional observations from a re-analysis of the deposited data

Results flagged for a closer look

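Of 41 quantities examined in the 9 younger pools, 8 had a pool whose gap to the next exceeded 0.493 of the range (Dixon's 95% value for 9 samples), where chance flags about 5%. The pool 12 m AL+LA 38 was highest for Cd74 (89.1 CPM, next 35.6), RT1-Ba (87.4, next 26.5), RT1-Da (56.0, next 24.2), RT1-Bb (31.8, next 9.76) and RT1-Db1 (60.6, next 14.5). These 5 flags concern 1 pool. In 6 m CR pool 10, Bcas1 reached 239 CPM (next 175). In 12 m CR pool 15, 43.2% of reads were not aligned (next 41.1%). The 3 blood markers summed to 607 CPM in 12 m AL+LA pool 39 (next 375).

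The change from 12 to 28 months differed between AL+LA and CR for Rn28s (-3.39 on the log2 scale), ENSRNOG00000045589 (-3.39) and ENSRNOG00000049350 (-3.37), each with an adjusted p of 4.76e-05.

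By edgeR's interaction test the change with age differed between the other diets and plain AL in 443 of 17230 genes (2.57%). The change in the other diets was more positive in 309 and more negative in 134. The called genes named here were picked for their change in the other diets, most of them as higher. The same pools enter this test, so its direction in these genes is partly set by that choice, and their share is no separate result. The test called 18 of the 31 called genes named here, each time with the more positive change in the other diets. These were Gfap (2.47), RT1-Ba (2.56), RT1-Da (2.53), Cd74 (2.40), ENSRNOG00000047657 (1.75), Serping1 (1.60), RT1-A2 (1.24), Itgb2 (1.18), Pbx3 (1.08), Ptprc (1.08), Fth1 (1.07), RT1-A1 (0.98), Qdpr (0.93), Laptm5 (0.93), Bcas1 (0.84), Anxa3 (0.82), Ctsb (0.73) and Mpeg1 (0.58), on the log2 scale. RGD1559896 (0.98) was flagged with them without being called with age in the other diets, and Rpl32 (-0.83) and ENSRNOG00000021159 (-1.04) differed in the opposite direction. Since the plain AL pools differ from the others in their cerebellum markers and their share of reads not aligned too, feeding and pool cannot be told apart.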

How the results depend on the processing

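Of the 31 called genes named in the text, no direction turned under any alternative, and 31 kept their call with DESeq2, with edgeR's exact test and without the filter. They numbered 21 with Rn28s as a covariate, 20 with the 12-month pools alone, 18 without 12 m CR, and, with pools left out after seeing the data, 29 without 6 m CR pools 10 and 12 and 12 m AL+LA pool 38 and 19 without the 4 pools with the highest Alb. For the 95 genes called, 28 m versus younger, diets other than plain AL, the count was 146 with edgeR's exact test, 54 with at least 10 counts in every library, 50 with Rn28s as a covariate, 49 without 12 m CR, 157 without 12 m AL+LA, 175 without 6 m CR pools 10 and 12 and 12 m AL+LA pool 38, 52 without the 4 pools with the highest Alb, and 55 to 133 with 1 pool left out. The log2 fold changes of Rn28s, ENSRNOG00000049350 and ENSRNOG00000045589 turned to -0.0035, -0.0039 and -0.0042 (0.81 each as reported) with Rn28s itself as the covariate, which removes them by construction. The diet-matched count of 18 was 170 without the filter, 5 with Rn28s as a covariate, 32 with DESeq2 and 4 to 31 with 1 pool left out. The CR and AL+LA interaction (15) had 9 calls with RLE size factors, 75 without the filter, 9 with at least 10 counts in every library, 0 with Rn28s as a covariate, 7 with DESeq2 and 7 to 28 with 1 pool left out. For 6 m to 28 m in CR (9) the counts were 106 without the filter, 5 with at least 10 counts and 7 to 20 with 1 pool left out. For 12 m to 28 m they were, in CR (47), 175 without the filter and 18 to 110 with 1 pool left out, and, in AL+LA (3), 44 and 1 to 8. Differences among the 7 diets (13) came to 279 without the filter and 5 to 31 with 1 pool left out, and those among the 3 younger groups (8) to 395, to 1 with at least 10 counts, and to 1 to 159. The difference from plain AL (443) came to 677 with DESeq2 and 58 to 761 with 1 pool left out. The cause of these shifts was not tested. Rn28s took a median of 0.779% of the reads on genes in the younger pools and 2.98% in the older. The age classes overlapped in it (0.253 to 3.31% and 0.439 to 3.37%), and the 12 m AL+LA pools, at 2.13 to 3.30%, lay within the older range. Its part as a covariate can therefore be told apart from age only in part. In the CR and AL+LA interaction it carries the tested difference itself, so the 0 calls there decide nothing. Depths of 2661799 to 5966979 reads on genes limit what genes under about 5 CPM can show. No paired analysis was possible because each pool number occurs once in the series.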
